A study of Caenorhabditis elegans with 33 samples.

Results

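The 753 RNAs described here are 21U piRNAs of the nematode Caenorhabditis elegans that took a larger share of the piRNA pool in wild type L4 larvae than in wild type gravid adults. They were chosen from a table of 15366 named 21U piRNAs. Each library was scaled to 1000000 21U piRNA reads, and an entry was kept if it had at least 2 RPM (reads per 1000000 reads of the library) in the wild type L4 library or in the mean of the 3 wild type adult libraries, which left 2738. A kept entry became a member when log2 of its scaled L4 level plus 10, minus log2 of its mean scaled adult level plus 10, exceeded 1. By the same measure 1397 kept entries leaned to adults, with a value below -1, and 588 lay between. Levels below are reads per 1000000 21U piRNA reads of the library unless RPM is named.

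21U RNAs are the piRNAs of nematodes. They are transcribed as short separate precursors, mostly from clusters on one chromosome, and are trimmed and bound by the Piwi protein PRG-1 in the germline, where they direct silencing of foreign and repeated sequence through secondary 22G small RNAs. A hermaphrodite germline forms sperm during late larval life and oocytes in the adult, and some 21U RNAs are known to be made mainly in the male and others mainly in the female germline. ALG-1, ALG-2 and ALG-5, the proteins this study was built around, belong to the Argonaute branch that binds microRNAs.

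Small RNA of 18 to 28 nt was sequenced from whole worms in 18 single libraries. Adults were collected 68 h after synchronised L1 larvae were plated and L4 larvae at 49 h, all at the same growth temperature. Wild type was strain N2 throughout, with 3 adult libraries and 1 L4 library. The untagged mutants, with 1 library each, were alg-5(ram2) at L4 and, as adults, alg-5(tm1163), alg-2(ok304) and alg-1(gk214). Inputs and immunoprecipitates came from adults carrying HA::ALG-1 in alg-1(gk214), HA::ALG-2 in alg-2(ok304), ALG-1::HA::ALG-2 in alg-1(gk214), which by its genotype joins alg-1 sequence to HA-tagged alg-2, and 3xHA::ALG-5 in alg-5(tm1163). GFP::3xFLAG::ALG-5, placed at the alg-5 locus itself as allele ram-1, was taken at L4. The HA-tagged lines therefore carry a transgene over a deleted gene, and none of them is a tagged wild type. The GFP-tagged line carries its tag in the gene itself. Messenger RNA was sequenced from L4 larvae of wild type, alg-1(gk214), alg-2(ok304), alg-5(ram2) and alg-5(tm1163), with 3 libraries each, at 49 h in all but alg-1(gk214), for which a time of 53 h served to equalise the stage.

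Library depth lay between 1622092 reads, in wild type adult 2, and 24518714 reads, in the GFP::ALG-5 input, and 21U piRNAs took from 9964 reads, in the GFP::ALG-5 immunoprecipitate, to 415096 reads, in wild type adult 1. The column headers number the experiments 1 to 4, and experiment 4 holds every L4 library and no adult, so stage and experiment cannot be told apart anywhere below. In the L4 messenger RNA, alg-1 was at 30.3 ± 2.05 FPKM (fragments scaled to gene length and library size) in wild type and 13.0 ± 2.88 in alg-1(gk214) (SD, n = 3). alg-2 was at 15.3 ± 1.96 FPKM in wild type and 2.06 ± 0.114 in alg-2(ok304), and alg-5 at 9.35 ± 1.17 in wild type and 0.720 ± 0.241 in alg-5(ram2). In the libraries labelled alg-5(tm1163), alg-5 was at 10.2 ± 1.37 FPKM (SD, n = 3), overlapping wild type. A value over the whole gene does not show a partial deletion, and the labels do not say which part of a gene is deleted. The small RNA libraries offer no such check of genotype.

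The members came from the ordinary piRNA clusters. All 753 names matched RefSeq entries of assembly WBcel235, used here for names and neighbours only, and 750 lie on chromosome IV, as do 2734 of the 2738 kept entries. The exceptions are 21ur-9719 on X, 21ur-13684 on V and 21ur-15587 on I, named because they are few. On chromosome IV, 366 of 750 members, or 48.8%, had another member as a direct neighbour among the kept entries, and the longest unbroken run held 13 members. Entries leaning to adults did so in 1089 of 1396 cases, or 78.0%, with a longest run of 23, and they are also the larger class. Of the 2734 kept entries on chromosome IV, 750 are members and 1396 lean to adults. What these shares give in random order was not computed, so no clustering is read from the counts. Among the 30 sequenced genomic clones with at least 20 kept entries, members made up 8.70% (clone H08M01) to 40.9% (clone T23G4), with a median of 24.9%. In Y105C5B, the clone with the most kept entries, they were 70 of 282. Of the 753 members, 14 had fractions of a read in at least 1 library, which marks reads shared with another entry, against 76 of all 2738.

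In wild type L4 the members made up 52.7% of all 21U piRNA reads (95% Wilson interval 52.5 to 52.9). In wild type adults they made up 10.1%, 9.10% and 8.12% (mean 9.10 ± 0.978, SD, n = 3). These values chose the members and carry no test. The member difference had a median of 2.67 on the log2 scale, quartiles of 2.06 and 3.28 and a range of 1.01 to 5.75, with 575 members above 2 and 280 above 3. Scaled levels in wild type L4 ran from 153 to 9955 with a median of 387, and every one of the 753 was above 100. In the wild type adult mean the median was 59.9, 224 members were at 100 or more, and 1 member, 21ur-11099, had no read in any of the 3 libraries. Only 358 members reached 2 RPM in both the L4 library and the adult mean, and 391 passed the filter through the L4 library alone. Of the 50 highest piRNAs in wild type L4, 37 were members, against 3 of the 50 highest in the adult mean. Reads were spread over many members, since the 10 highest held 11.01% and the 100 highest 46.5% of the members' reads in wild type L4.

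21U piRNAs took a smaller part of the library at L4, and this sets the scale of every stage difference. RPM is a share of library reads, so the absolute size of the pool was not measured. 21U piRNAs summed to 23455 to 36146 RPM in the 3 wild type adults and to 11389 RPM in wild type L4, a ratio of L4 to the adult mean of 0.359. On that scale the members were 2.08 times as high in wild type L4 as in the adult mean and the other kept piRNAs 0.143 times. Individually 680 of the 753 members were higher in RPM in wild type L4. Because whole worms were sequenced, fewer cells of a type and less RNA per cell cannot be told apart.

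The threshold cut through a continuous range. Just inside it lay 21ur-3394, with a difference of 1.01 (153 in L4 and 71.1 in the adult mean), and 21ur-1614, also at 1.01 (246 and 117). Just outside lay 21ur-2812 and 21ur-5366, both at 0.99, at 129 and 59.9 and at 2534 and 1267.

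**Figure D1:**
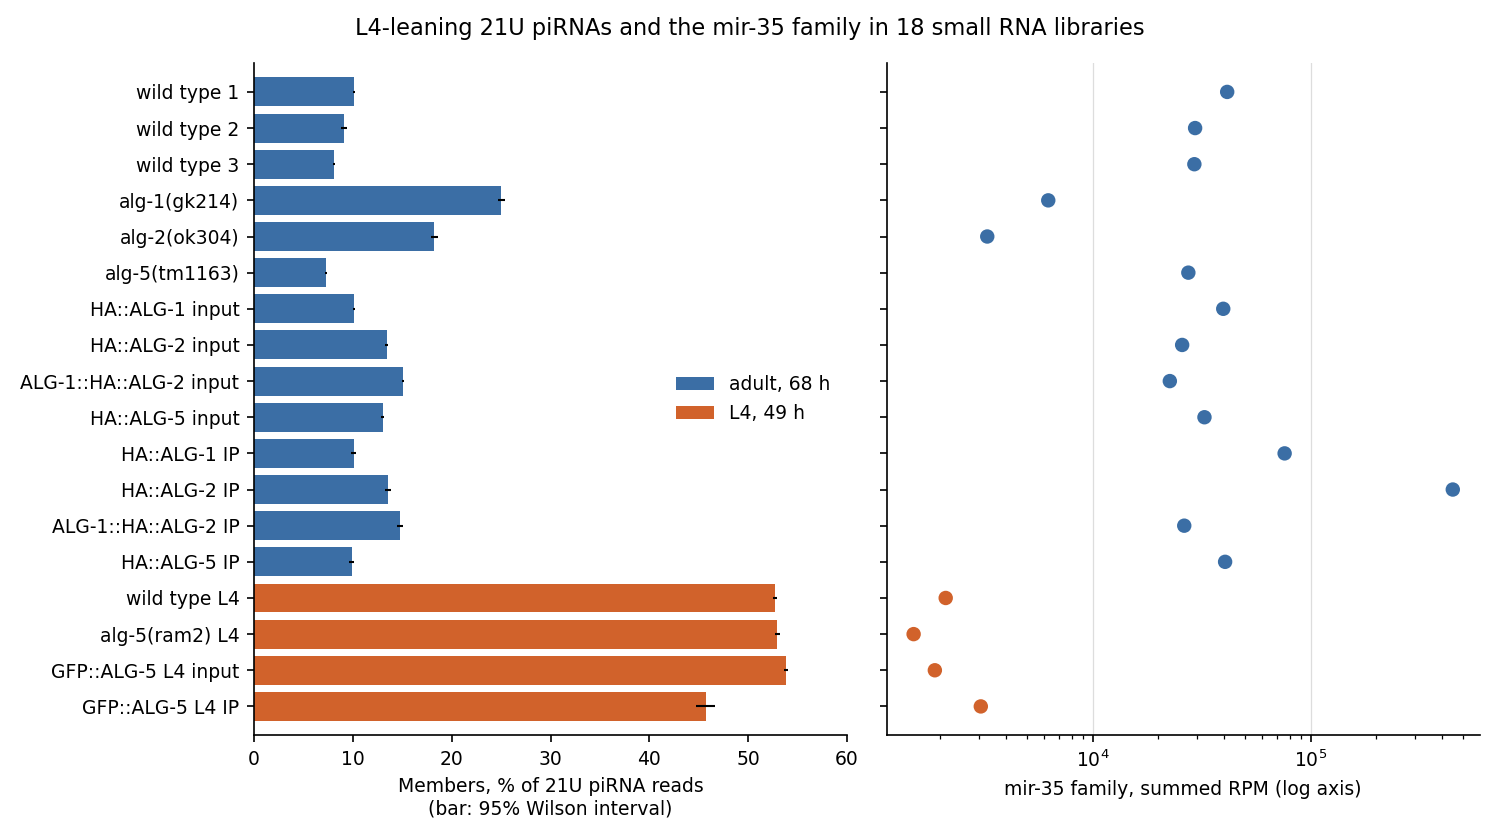
Left, the share of 21U piRNA reads taken by the 753 members in each of 18 libraries (%, bars, with 95% Wilson intervals that cover counting error only). Right, the summed level of the 8 mir-35 family microRNAs (RPM, log axis). Adults are blue and L4 larvae orange, and IP is immunoprecipitate. All 4 L4 bars lie between 45.7% and 53.8%, and among adults alg-1(gk214) at 25.01% and alg-2(ok304) at 18.2% stand above the rest while their mir-35 levels are the lowest of the adults.

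The stage lean was then read in libraries that the rule had not used, 2 at L4 (alg-5(ram2) and the GFP::ALG-5 input) and 7 from adults (the alg-1(gk214), alg-2(ok304) and labelled alg-5(tm1163) mutants and 4 inputs). Members made up 52.9% and 53.8% of piRNA reads in the 2 L4 libraries and 7.24% to 25.01% in the 7 adult ones, with no overlap. By limma on log2 of the scaled level plus 10, 535 of 753 members were higher at L4 at an adjusted p under 0.05 and 0 were lower, although 8 had a negative difference. Across all 2738 kept piRNAs, 20.0% were called higher and 40.0% lower, and 1788 had an unadjusted p under 0.05, of which 576 were members. The median difference was 2.02 for the members, with quartiles of 1.33 and 2.60, against -1.68 for the other kept piRNAs and -0.99 for all 2738. Both L4 libraries lay above all 7 adults for 569 members, where 22.2% of all kept piRNAs did, and below all 7 for 0 members. Each of these 9 libraries has its own genotype or tag, so the test measures the spread over genotypes and not over repeats of one. The filter had admitted 391 of the 753 members through wild type L4 alone, and these were not tested apart from the rest.

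Split by the wild type difference that chose them, which makes the following counts a description only, the members were called as follows. Of the 178 with a wild type difference of 1 to 2, 64 were called, of the 295 between 2 and 3, 213, and of the 280 above 3, 258. Leaving out either L4 library lowered the count. Without alg-5(ram2), 269 members were higher, where 9.86% of all kept piRNAs were higher and 23.4% lower. Without the GFP::ALG-5 input, 265 members were higher and 1 lower, where 9.68% were higher and 22.2% lower. With only 1 L4 library the test assumes that it varies like the adults. With the 4 untagged mutants alone, 1 at L4, no member and no other kept piRNA passed. In that fit 720 members had a positive difference and 33 a negative one. The members' median was 2.01 there, against -0.71 for all kept piRNAs. On deposited RPM, where the smaller piRNA part of the L4 libraries counts, 128 members were higher and 9 lower. There the background was 4.67% higher and 58.4% lower, and the members' median was 0.65 against -2.06 for all kept piRNAs. The summed level of the members, L4 over adult, was 3.66 as a share of piRNA reads and 1.38 in RPM. Of the 753 members, 565 had a positive difference in RPM and 188 a negative one.

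**Figure D2:**
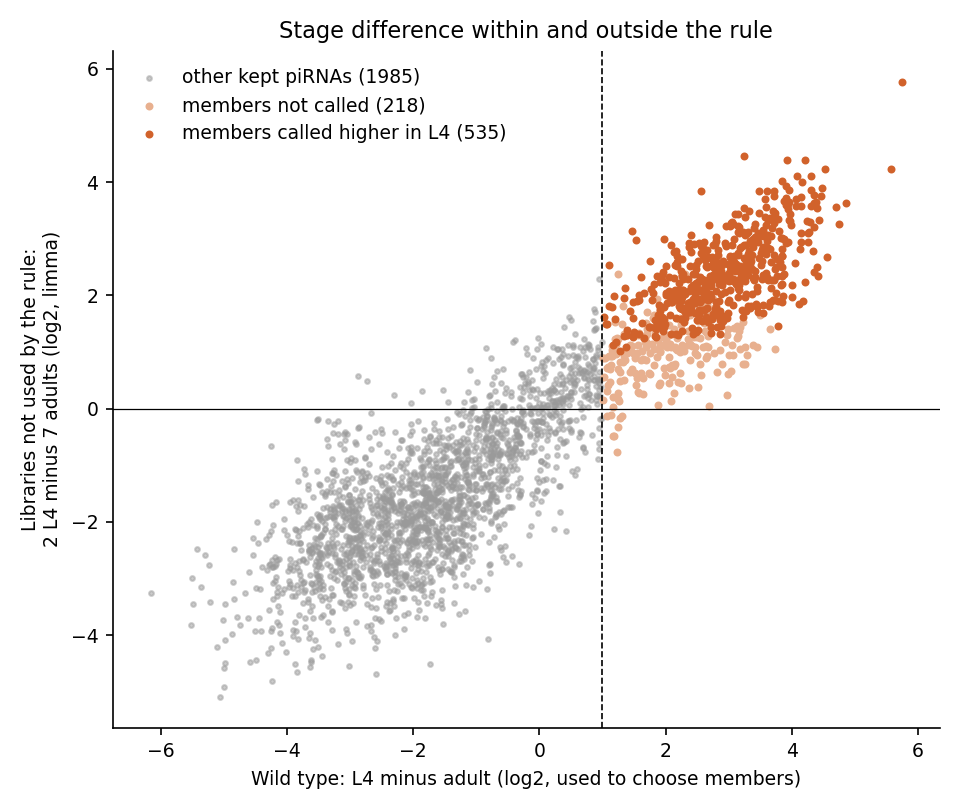
Each point is 1 of 2738 kept piRNAs. The horizontal axis is the wild type difference that chose the members (log2, dashed line at the threshold of 1), and the vertical axis the limma difference of 2 L4 minus 7 adult libraries that the rule had not used (log2). The 535 members called higher at L4 are dark orange, the 218 not called pale orange, and 8 members fall below 0.

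The 8 members highest in wild type L4 were at 191 or more in every wild type adult. Ranges and overlaps of named members include the wild type libraries that chose them. 21ur-5522, the most abundant, was at 9955 in wild type L4, 8290 in alg-5(ram2) and 10022 in the GFP::ALG-5 input. In the 10 adult libraries without immunoprecipitation it lay between 2006 and 3455, so the stages did not overlap, and its difference outside the rule was 1.65 ± 0.32 (SE, adjusted p = 0.00101, limma). 21ur-4049 was at 7171, 11869 and 12333 in the same L4 libraries and at 2832 to 4820 in 9 adult libraries, but at 7631 in alg-1(gk214), which is above wild type L4 (1.49 ± 0.35, SE, adjusted p = 0.00289, limma). Overlap between the stages for this member thus rests on the alg-1(gk214) adults.

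21ur-2739 separated the stages most widely but one among the 8. It was at 5379, 5751 and 5451 at L4 and at 263 to 1035 in adults, a difference of 3.00 ± 0.44 outside the rule (SE, adjusted p = 0.000199, limma). 21ur-1801 was at 4399, 5290 and 5174 at L4, at 191 to 212 in wild type adults, at 761 in alg-1(gk214) and 462 in alg-2(ok304), and at 662 in the HA::ALG-5 input (3.77 ± 0.54, SE, adjusted p = 0.000182, limma). All 3 L4 values of both members lay above every adult value.

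The adult libraries of experiment 2 were high for 3 of the 8. 21ur-3302 was at 2812 in wild type adult 2, 4990 in alg-1(gk214) and 4292 in alg-2(ok304), and at 608 to 1782 in the other adults, against 5278 to 8146 at L4. 21ur-1296 was at 3075, 4585 and 4556 in these adults, at 1330 to 2536 in the others, and at 5121 to 5424 at L4. 21ur-1202 was at 3391, 2997 and 4072 in them, at 1176 to 1835 in the other adults, and at 4298 to 6712 at L4. For these members the wild type adult of experiment 2 itself stood above the other wild type adults. All 3 passed the stage test, at differences of 2.20, 1.18 and 1.81 with adjusted p of 0.00855, 0.0404 and 0.00414 (limma). Under 20 other settings of the processing, the call of 21ur-1296 was lost in 10 and its sign changed in 1. The call of 21ur-3302 was lost in 4 and that of 21ur-1202 in 3. 21ur-1306 was at 7857, 6835 and 7660 at L4 and 2701 to 4394 in adults, and passed at 1.02 ± 0.31 (SE, adjusted p = 0.0131, limma). On deposited RPM, 21ur-1306 and 21ur-1296 had differences of -0.44 and -0.28 that did not pass (adjusted p = 0.362 and 0.603, limma). There 21ur-5522, 21ur-4049, 21ur-3302 and 21ur-1202 were at 0.19, 0.03, 0.74 and 0.35. These did not pass either (adjusted p = 0.691, 0.939, 0.251 and 0.498, limma). Only 21ur-2739 and 21ur-1801 of the 8 passed on RPM, at 1.54 and 2.32 (adjusted p = 0.0167 and 0.00157, limma).

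Of the 6 members with the largest difference outside the rule, all but 21ur-2841 lay below 100 in every wild type adult. 21ur-11099 had 131 reads in wild type L4, 122 in alg-5(ram2) and 123 in the GFP::ALG-5 input, or levels of 529, 678 and 467. Of the 10 adult libraries without immunoprecipitation it had 1 read, in the library labelled alg-5(tm1163) (level 3.53), and 0 in the other 9, where 0 reads allow up to 7.23 (wild type adult 1) to 78.9 (wild type adult 2), taking 3 reads as the limit. Its fitted difference of 5.78 (adjusted p = 2.82e-05, limma) depends on the 10 added to each level and is not a bound. It had no read in any of the 4 adult immunoprecipitates and 4 reads in that of GFP::ALG-5.

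21ur-2841 was the most abundant of the 6, at 3668, 6034 and 5656 at L4. In adults it was at 154, 237 and 174 in wild type, 729 in alg-1(gk214), 396 in alg-2(ok304) and 88.3 to 308 in the others (4.38 ± 0.60, SE, adjusted p = 0.000151, limma). 21ur-787 was at 964, 1545 and 1389 at L4 and at 20.1 to 178 in adults, the highest again being alg-1(gk214) (4.38 ± 0.61, SE, adjusted p = 0.00016, limma). 21ur-6847, 21ur-5217 and 21ur-1753 were at 258 to 472, 1174 to 1584 and 767 to 1256 at L4. Their adult levels lay between 0 and 32.4, 0 and 146, and 0 and 80.1, and their differences were 4.46, 4.24 and 4.23 (adjusted p = 0.00016, 0.000139 and 0.000139, limma). None of the 6 overlapped between the stages, but they were picked for the largest differences in these libraries, so nothing is read from it. Across all kept piRNAs, both L4 libraries outside the rule lay above all 7 adults for 22.2%.

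**Figure D3:**
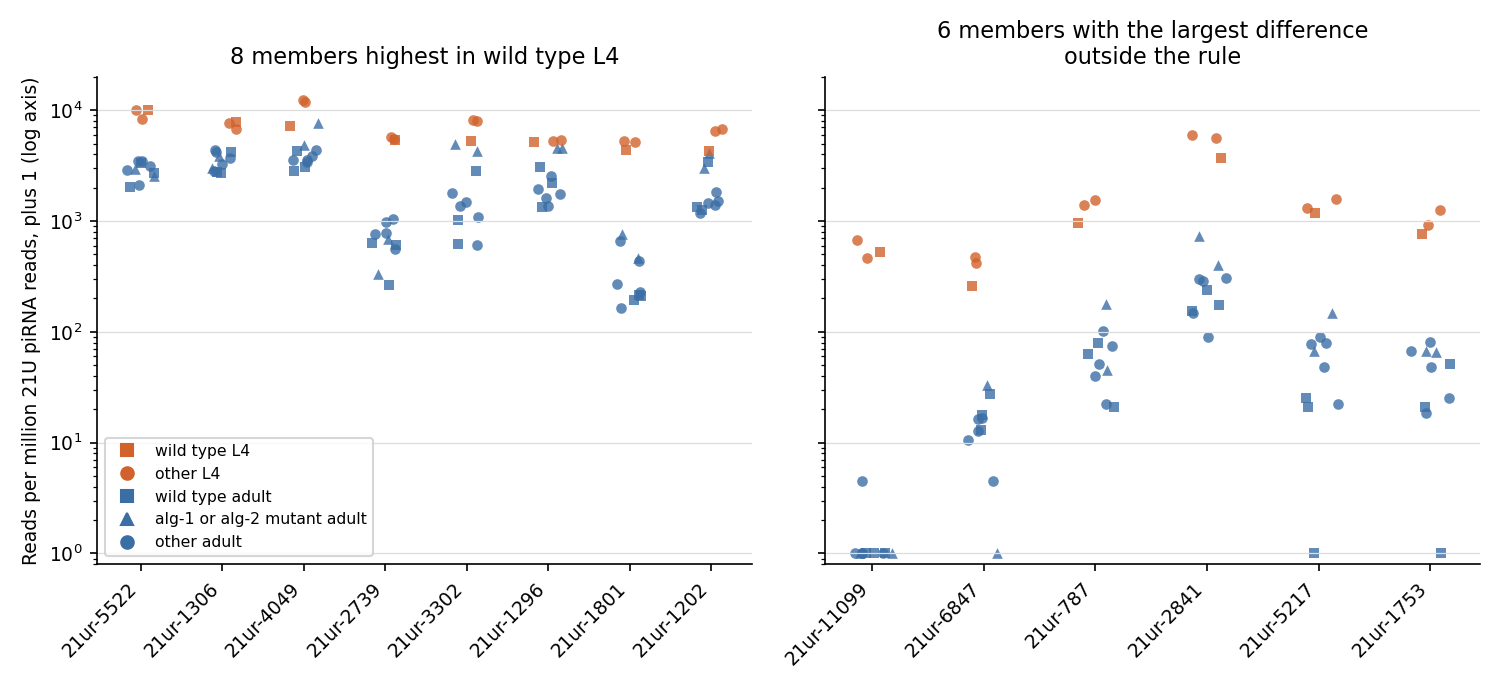
Levels of 14 members in the 13 libraries without immunoprecipitation (reads per 1000000 21U piRNA reads plus 1, log axis, 1 point per library, shifted sideways for sight). L4 libraries are orange and adults blue, squares are wild type and triangles alg-1 or alg-2 mutant adults. The L4 points lie above all adult points in every column but that of 21ur-4049, where alg-1(gk214) at 7631 exceeds wild type L4 at 7171. The members shown were picked for high L4 levels or large stage differences.

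The L4 libraries without immunoprecipitation resembled each other member by member. Between alg-5(ram2) and wild type L4, 650 of 753 members, or 86.3%, lay within 2-fold, with a median difference of -0.11. Between the GFP::ALG-5 input and wild type it was 697, or 92.6%, and between the GFP::ALG-5 input and alg-5(ram2) 700, or 93.0%. Of all 2738 kept piRNAs, 2023 lay within 2-fold between alg-5(ram2) and wild type L4. Between the GFP::ALG-5 input and wild type L4 it was 2093 of 2738. Pearson's r over the 753 log2 levels was 0.88, 0.91 and 0.92 in the same order. These points share the library, and wild type L4 was used to choose the members. The member share of alg-5(ram2), in which alg-5 messenger RNA was low, was 52.9% (95% Wilson interval 52.7 to 53.2) beside 52.7% in wild type L4, at 1 library each.

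Among adults the member share differed between genotypes. It was 25.01% (95% Wilson interval 24.7 to 25.3) in alg-1(gk214) and 18.2% (17.9 to 18.6) in alg-2(ok304), beside 9.10% (8.81 to 9.39) in wild type of the same experiment. In the library labelled alg-5(tm1163) it was 7.24% (7.15 to 7.34), beside 8.12% (8.02 to 8.22) in its wild type. These intervals cover counting error only. With 1 library per mutant there is no replicate check, and the 3 wild type adults alone spanned 8.12% to 10.1%. In RPM the members summed to 5022 in alg-1(gk214) and 4182 in alg-2(ok304), above the 2133 to 3642 of the 3 wild type adults. The other kept piRNAs summed to 11924 and 16130, below the 19491 to 29362 of wild type. In the 4 adult inputs the members summed to 2943 to 4895 RPM, the highest being ALG-1::HA::ALG-2. The other kept piRNAs summed to 17412 to 24226 RPM in these inputs.

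Counts over single members are given beside those of the other or all kept piRNAs, as a description. Against wild type of the same experiment, 679 of 753 members were higher in alg-1(gk214), with a median of 1.56. In alg-2(ok304) 604 were higher, with a median of 1.03. Of all 2738 kept piRNAs, 1362 were higher in alg-1(gk214) and 1362 in alg-2(ok304). The other kept piRNAs had medians of -0.44 and -0.21. In the library labelled alg-5(tm1163) 239 members were higher and 513 lower, with a median of -0.24 against 0.03 for the others. In alg-1(gk214), 579 members lay above all 3 wild type adults and 33 below, where 29.3% and 37.7% of all kept piRNAs did. In alg-2(ok304) it was 477 above and 58 below, where 25.8% and 33.4% of all kept piRNAs did. In the library labelled alg-5(tm1163) 90 lay above and 261 below, where 25.6% and 19.8% did. Among the adult inputs, 208 members lay above all 3 wild type adults for HA::ALG-1, 448 for HA::ALG-2, 549 for ALG-1::HA::ALG-2 and 434 for HA::ALG-5. Below all 3 lay 72, 44, 8 and 67 members in the same order. Of all 2738 kept piRNAs, 502, 800, 804 and 937 lay above and 327, 459, 480 and 639 below. The wild type adults helped to choose the members as low in adults, so these counts are a description with nothing read from them, and wild type adult 2 is the shallowest library, with a read for 566 of 753 members. 420 members, or 55.8%, lay above all 3 wild type adults in both alg-1(gk214) and alg-2(ok304), as did 109 of the 1985 other kept piRNAs, or 5.49%. Both mutants share these controls and their experiment, and these counts too are a description only.

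A marker of embryos was low in the alg-1(gk214) and alg-2(ok304) adults. The mir-35 family, 8 microRNAs made in oocytes and embryos, summed to 29265 to 41384 RPM in wild type adults, 27463 in the library labelled alg-5(tm1163) and 22587 to 39698 in the adult inputs. It summed to 6258 RPM in alg-1(gk214) and 3287 RPM in alg-2(ok304), between these and the 1511 to 2120 RPM of L4 libraries without immunoprecipitation. The family was higher in every immunoprecipitate than in its input, at 447930 against 25726 RPM for HA::ALG-2 and 75891 against 39698 for HA::ALG-1. The family was at 26299 against 22587 RPM for ALG-1::HA::ALG-2, 40488 against 32559 for HA::ALG-5 and 3071 against 1890 for GFP::ALG-5. Whether its low level in the mutants reflects loss of a binding Argonaute or fewer embryos was not tested. The part of the embryo and oocyte content of the worms in the member shares was not tested. Without these 2 mutant adults, a comparison chosen after seeing the data, 661 members were called higher at L4, where 25.7% of all kept piRNAs were higher and 51.1% lower.

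The inputs of the tagged adults carry the same deletions together with a transgene. The HA::ALG-1 input, in alg-1(gk214), had a member share of 10.1% (10.03 to 10.2), beside 10.1% in wild type of its experiment, and a member median of 0.03. The ALG-1::HA::ALG-2 input, also in alg-1(gk214), had 15.1% (15.0 to 15.2) and a median of 0.66. The HA::ALG-2 input, in alg-2(ok304), had 13.4% (13.3 to 13.6) and a median of 0.52. The HA::ALG-5 input, in alg-5(tm1163), had 13.0% (12.9 to 13.2), beside 8.12% in wild type of its experiment, and a median of 0.69, so its share lay above that of the untagged mutant of the same experiment, 7.24%. The untagged alg-1 and alg-2 mutants were in another experiment than these inputs, so the difference between mutant and tagged line was not tested.

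**Figure D4:**
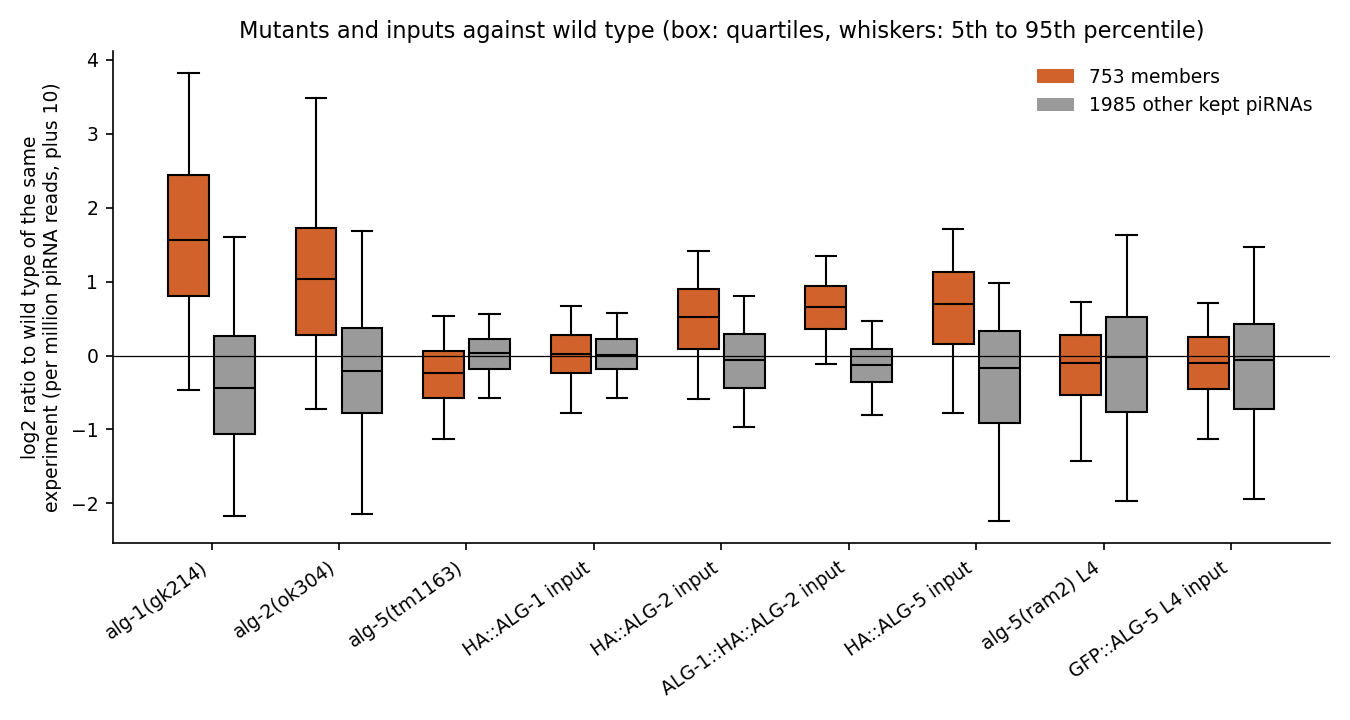
log2 ratio of each of 9 libraries to wild type of the same experiment and stage, for the 753 members (orange) and the 1985 other kept piRNAs (grey), from scaled levels plus 10. Boxes are quartiles with the median, and whiskers the 5th to 95th percentile over piRNAs. Member medians are highest in alg-1(gk214), at 1.56, and alg-2(ok304), at 1.03, and near 0 in the L4 libraries.

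The messenger RNA of L4 larvae gave the levels of genes that make piRNAs and act with them. Of 26 listed genes 24 were in the table, and all 24 were among the 15174 tested with limma. In alg-1(gk214) 2 were higher and 1 lower, where 14.8% of all genes were called in either direction, with a median of 0.14 over the 24 against 0.01 over all genes. In alg-2(ok304) 1 was higher and 0 lower, where 12.0% of all genes were called. In alg-5(ram2) 0 of 24 were called, and 2 had an unadjusted p under 0.05, where 0.290% of all genes were called. In the libraries labelled alg-5(tm1163) 0 were called, and 3 had an unadjusted p under 0.05, where 0.0857% of all genes were called. The labels do not say whether replicates came from separate cultures, so p-values measure the spread between these libraries only.

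Among transcription factors of piRNA genes, snpc-1.3 passed in both mutants. Its protein is a subunit of the complex that reads small RNA genes and is known to drive male germline piRNAs. It was at 3.68, 1.98 and 2.62 FPKM in wild type, 4.69, 8.91 and 9.44 in alg-1(gk214) and 8.70, 9.76 and 7.63 in alg-2(ok304). Neither mutant overlapped wild type, and the differences were 1.18 ± 0.35 (SE, adjusted p = 0.0357, limma) and 1.39 ± 0.35 (SE, adjusted p = 0.0177, limma), on the scale of log2 of FPKM plus 1. It was at 2.89 ± 1.22 FPKM in alg-5(ram2) and 2.51 ± 0.922 in the libraries labelled alg-5(tm1163) (SD, n = 3), beside 2.76 ± 0.859 in wild type, and neither of these differences passed. tofu-5, which belongs to the complex bound upstream of piRNA genes, was at 26.5 ± 7.22 FPKM in wild type and 49.2 ± 13.3 in alg-1(gk214) (SD, n = 3; 0.87 ± 0.23, SE, adjusted p = 0.0226, limma). It was also at 46.3 ± 6.77 FPKM in the libraries labelled alg-5(tm1163), all 3 above wild type, and at 39.5 ± 9.61 in alg-2(ok304) (SD, n = 3), where the differences of 0.81 and 0.57 did not pass (adjusted p = 0.255 and 0.147, limma). prde-1 and snpc-4, partners in piRNA transcription, did not pass in any mutant.

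Of the genes that process piRNAs, parn-1 passed. It encodes the nuclease that trims the 3' ends of piRNA precursors, and was at 10.1 ± 1.59 FPKM in wild type and 5.49 ± 1.32 in alg-1(gk214) (SD, n = 3; -0.78 ± 0.24, SE, adjusted p = 0.0428, limma). prg-1, the Argonaute that holds 21U RNAs, was at 72.8 ± 7.36 FPKM in wild type and 88.5 ± 2.48, 74.9 ± 8.60, 68.2 ± 0.470 and 70.0 ± 4.14 in alg-1(gk214), alg-2(ok304), alg-5(ram2) and alg-5(tm1163) (SD, n = 3). None of its 4 differences, 0.28, 0.04, -0.09 and -0.05, passed. The downstream genes hrde-1, wago-1, mut-16, simr-1, deps-1, pid-2 and pgl-1 did not pass in any mutant.

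These calls were few and lay near the threshold. The 3 calls of alg-1(gk214) fell to 0 when alg-1(gk214) library 3 was left out or when only the compared genotypes were fitted, and to 1 without wild type library 2. The call of alg-2(ok304) was lost without wild type library 2, alg-2(ok304) library 1 or alg-2(ok304) library 2. Sperm and yolk genes moved in the same larvae. The 4 sperm markers msp-3, msp-10, msp-81 and spe-11 summed to 764 to 900 FPKM in wild type, 259 to 386 in alg-1(gk214), 131 to 165 in alg-2(ok304), 558 to 710 in alg-5(ram2) and 294 to 403 in the libraries labelled alg-5(tm1163), and 4, 4, 0 and 2 of the 4 were called lower. The msp genes are near-identical copies, so reads may be split among them. The yolk genes vit-2 and vit-5 summed to 3.25 to 4.68 FPKM in wild type, 27.4 to 32.4 in alg-1(gk214), with both called higher, and 8.86 to 21.6 in alg-2(ok304), with vit-5 called higher. The part of a shift in germline timing in these calls was not tested, and the messenger RNA is from L4 whereas the alg-1(gk214) and alg-2(ok304) piRNA libraries are from adults.

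Within the piRNA pool no member passed the test between Argonaute immunoprecipitate and input. Against the input of the same construct, with the 5 constructs as blocks, limma called 0 of 753 members higher and 0 lower, where 0% of all kept piRNAs were called in either direction. At an unadjusted p under 0.05 there were 60 members lower and 5 higher, and 176 and 59 of all 2738. The smallest adjusted p of a member was 0.488, and edgeR on the recovered reads called 2 members lower, where 0.292% of all kept piRNAs were lower and 0.0365% higher. The median difference was -0.34 for the members and -0.20 for the other kept piRNAs, with 537 members below 0.

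The piRNA pool as a whole was lower in the immunoprecipitates. The ratio of immunoprecipitate to input RPM was 0.193 for HA::ALG-1, 0.168 for HA::ALG-2, 0.206 for ALG-1::HA::ALG-2 and 0.222 for GFP::ALG-5, but 0.911 for HA::ALG-5. The members' own ratios were 0.192, 0.169, 0.202, 0.188 and, for HA::ALG-5, 0.691. On deposited RPM 669 members were lower and 0 higher, where 79.5% of all kept piRNAs were lower, with a median of -1.85 for the members and -1.69 for all. In the 3 ALG-1 and ALG-2 constructs the share of members in the pool went from 10.1% to 10.1%, from 13.4% to 13.6% and from 15.1% to 14.8%.

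The 2 ALG-5 constructs differed from these in the share of members. In HA::ALG-5 it was 13.0% in the input and 9.89% (95% Wilson interval 9.63 to 10.2) in the immunoprecipitate, with a member median of -0.49 and 0.10 for the other kept piRNAs. In GFP::ALG-5 it was 53.8% and 45.7% (44.7 to 46.7), with medians of -0.38 and -0.68. Each construct has 1 pair of libraries, so these differences exceed counting error and have no replicate check. In the GFP::ALG-5 immunoprecipitate 1 read is worth a level of 100.4, and 598 of 753 members had a read.

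Single members with extreme immunoprecipitate values rested on few reads. 21ur-6497 was at 178, 156, 212, 33.8 and 418 in the inputs, given in the order HA::ALG-1, HA::ALG-2, the joined construct, HA::ALG-5 and GFP::ALG-5, and at 256, 168, 316, 104 and 2710 in the immunoprecipitates, which were higher in 5 of 5 pairs (1.04 ± 0.44, SE, adjusted p = 0.547, limma). 21ur-7223 was at 83.0, 121, 154, 43.5 and 110 in the inputs and 96, 189, 216, 62.3 and 1204 in the immunoprecipitates, also higher in 5 of 5 (1.01 ± 0.52, SE, adjusted p = 0.559, limma). The GFP::ALG-5 values of this pair stand for 27 and 12 reads. 21ur-1011 was at 101, 448, 182, 208 and 596 in the inputs and 16, 20.99, 49.9, 104 and 0 in the immunoprecipitates, lower in 5 of 5 (-2.90 ± 0.70, SE, adjusted p = 0.488, limma), where 0 reads in GFP::ALG-5 allow a level of up to 301. 21ur-6675 had 0 reads in the immunoprecipitates of HA::ALG-1, HA::ALG-5 and GFP::ALG-5 and 9 and 3 in those of HA::ALG-2 and ALG-1::HA::ALG-2, from inputs of 88.9 to 919 (-2.88 ± 0.86, SE, adjusted p = 0.488, limma). None of the 4 passed.

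**Figure D5:**
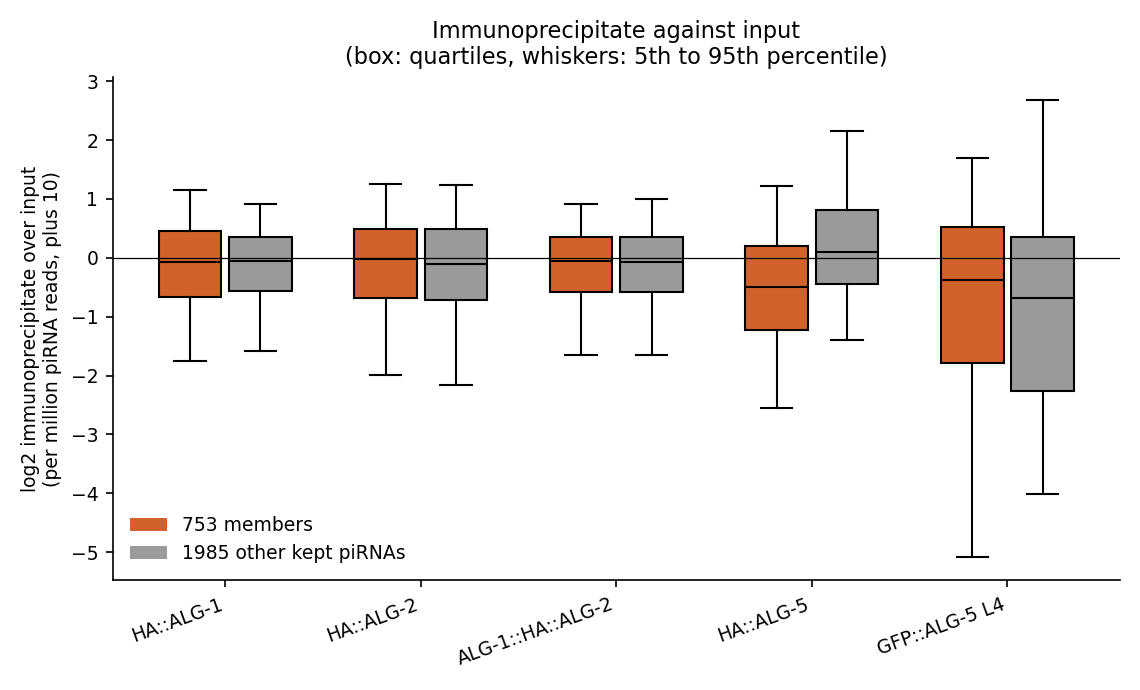
log2 of immunoprecipitate over input per construct for the 753 members (orange) and the 1985 other kept piRNAs (grey), from scaled levels plus 10. Boxes are quartiles with the median, and whiskers the 5th to 95th percentile over piRNAs. Member medians lie between -0.49 and -0.03 in the 5 constructs, and the widest boxes are those of GFP::ALG-5, whose immunoprecipitate has 9964 piRNA reads.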

How the data were processed

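The authors deposited small RNA values as RPM per named entry and library, and messenger RNA values as FPKM per gene and library, estimated with Cuffdiff per the labels. The submitters' processing notes also name Trimmomatic 0.35, TopHat2, HTSeq and DESeq2, with no order. The genome build is not given in the sources used here, so no coordinates are printed. RNA was gel-purified at 18 to 28 nt and treated with polyphosphatase or TAP, per the labels' protocols.

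In each library the low RPM values fell on multiples of a smallest step, which was read as the worth of 1 read. Within 0.02 of a read, 99.1% to 99.6% of piRNA values were whole. The HA::ALG-5 input also holds values of a fraction of a read, so its step was estimated from its other low values. Library totals and Wilson 95% intervals come from these reads, carry no molecular identifiers and cover counting error only. A count of 0 was taken to allow up to 3 reads. The depth of the FPKM libraries is unknown. Columns that matched no sample numbered 0.

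The members, the gene lists and the tests were chosen with earlier results of these data known. Levels were scaled to 1000000 piRNA reads per library. The stage comparison outside the rule and the immunoprecipitate comparison were fitted with limma 3.58.1 on log2 of the level plus 10, with a mean-variance trend, over all 2738 kept piRNAs, with Benjamini-Hochberg adjustment and a threshold of 0.05. Residual degrees of freedom were 7 and 4. As an alternative, edgeR 4.0.16 on the recovered reads called 547 members higher at L4, and DESeq2 1.42.0 called 634. Of all 2738 kept piRNAs, edgeR called 563 higher and 1188 lower, and DESeq2 696 higher and 1019 lower. FPKM values were tested with limma on log2 of FPKM plus 1, with all 15 libraries in 1 model, for genes of a mean of at least 1 FPKM in a genotype. A fold change on these scales understates the change of low entries. The scripts were tested on simulated data.

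Members named are the 8 highest in wild type L4, the 6 with the largest difference outside the rule among those called, the 2 largest and 2 smallest immunoprecipitate differences among members with a mean input level of at least 100, and the 2 nearest the threshold on each side. Of the listed genes, prg-1 and those called are given with values. Alternatives were other pseudocounts, filters, scalings and tools, and leaving out each library.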

Additional observations from a re-analysis of the deposited data

Results flagged for a closer look

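For 21ur-1296, the immunoprecipitate lay below the input in all 4 adult constructs (-0.77, -1.01, -0.56 and -0.25 on the log2 scale) and above it in the L4 construct, GFP::ALG-5 (0.0765). The signs differ between the stages, but the L4 levels of 5720 and 5424 are close, the immunoprecipitate value rests on 57 reads, and the difference between stages was not tested. The L4 construct also carries another tag. Signs also differ, untested, for 21ur-2812, a piRNA just below the membership threshold, which lay at -1.79, -0.15, -1.59 and -1.02 in the adult constructs and at 2.32 in GFP::ALG-5, where the immunoprecipitate value stands for 4 reads.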

How the results depend on the processing

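The members were counted under other settings. On deposited RPM the rule itself gave 463 members, all among the 753, and with a filter of at least 10 RPM it gave 157. Outside the rule, the 535 members higher at L4 became 128 on deposited RPM, with 9 lower, and 127 with the filter of 10 RPM, which leaves 157 members to test. With mutants only (1 L4 against 3 adults) none passed, and 720 members were positive and 33 negative. Leaving out each library gave 265 to 607 higher and 0 to 1 lower. The other settings, edgeR, DESeq2, inputs alone, other pseudocounts and no filter among them, gave 460 to 661. In these settings 493 to 704 of all 2738 kept piRNAs were higher, and without a filter 904 of 11611. The median difference of 2.02 became 0.65 on deposited RPM, and the ratio of summed levels 1.38. Between immunoprecipitate and input, 669 members were lower on deposited RPM (median -1.85), 2 with edgeR, 1 with adult constructs only, and 0 to 1 when each construct was left out.

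For the 18 piRNAs named for their stage values, the 2 just outside the threshold included, 302 of 354 values kept their direction and side of the threshold, 33 no longer passed, 6 came to pass and 13 changed sign. On deposited RPM the values that turned negative were 21ur-1306 (-0.44), 21ur-1296 (-0.28), 21ur-3394 (-0.40), 21ur-1614 (-1.16) and 21ur-5366 (-0.26). With mutants only, 21ur-3394 was at -0.015 and 21ur-1614 at -0.41. Leaving out 1 library each gave 21ur-1614 -0.20 to 0.51 and 21ur-2812 -0.82 to 0.50. 21ur-2812, at -0.16 as reported, was at 0.25 with edgeR and TMM, 0.32 with DESeq2 and 0.68 with mutants only. Of 48 immunoprecipitate values of named members, 43 kept both, 3 came to pass and 2 turned negative, 21ur-7223 (-0.76) and 21ur-6497 (-0.75), both on deposited RPM.

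Replicate numbers of the messenger RNA libraries did not pair them. Over 30 same-numbered pairs the correlation of deviations lay between -0.025 and 0.090. With the replicate number as a block, 3 listed genes were called in alg-1(gk214) and 2 in alg-2(ok304), in place of 3 and 1. With only the compared genotypes it was 0 in alg-1(gk214), and leaving out each library gave 0 to 3 in alg-1(gk214) and 0 to 1 in alg-2(ok304). The cause of these changes was not tested. Depth limits single members most in the GFP::ALG-5 immunoprecipitate.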
